A study of Mus musculus with 8 samples.

Results

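The genes that build and move cholesterol, build fatty acids, and control both pathways were followed in whole brains of wild-type (WT) mouse embryos at E14.5. The set was chosen by gene symbol and held 33 genes, all of which were found among the 33971 rows of the count table. It comprised 18 sterol synthesis enzymes, 5 SREBP genes and regulators, 3 genes of sterol transport and 7 genes of fatty acid synthesis. The 5, called SREBP regulators below, were Srebf1 and Srebf2, which encode the SREBP transcription factors, and Scap, Insig1 and Insig2. Brains came from WT dams fed a choline-deficient diet (CDD, n = 4 brains) or a normal chow diet (ND, n = 4 brains). By the study's methods the CDD began on the day of mating and lasted until the embryos were taken. The mouse strain, the sex of the embryos, and how many dams or litters gave the brains are not given in the sources used here. The p-values below therefore measure only the spread between these brains. All embryos were WT. Diet cannot be told apart from dam or litter where these differed between the groups.

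Cholesterol is made from acetyl-CoA through mevalonate and squalene, and fatty acids are made from the same precursor through malonyl-CoA. SREBP transcription factors, encoded by Srebf1 and Srebf2, switch on both sets of genes, with SREBP2 better known for the sterol genes and SREBP1 for the fatty acid genes. When membranes hold enough sterol, INSIG proteins keep the SCAP-SREBP complex in the endoplasmic reticulum. The fetal brain makes much of its own cholesterol, and choline is the head group of phosphatidylcholine, a main lipid of the same membranes.

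The libraries held 31770217 to 43121170 counts. By Hox genes a single library stood apart. CDD replicate 2 held 2796 counts over 7 Hox genes of the caudal hindbrain and spinal cord, while the other 7 brains held 0 to 8. Values without this brain are also given for some genes near the threshold, among them Idi1, Cyp51, Nsdhl and Insig1. They are given too for the medians of the set and of the sterol enzymes. Across all genes tested CDD replicate 4 was the most often extreme brain. It held the highest value of 21.7% of the genes and the lowest of 23.7%. Among marker lists, neural progenitor genes summed to 1536 to 1696 CPM (counts scaled to library size) in CDD and 1399 to 1477 CPM in ND, and 3 of 8 passed the test upwards. Oligodendrocyte lineage genes summed to 92.0 to 106 CPM in CDD and 114 to 132 CPM in ND, with 2 of 5 lower. Embryonic haemoglobin genes of primitive erythroid cells summed to 114 to 222 CPM in CDD and 33.3 to 44.99 CPM in ND, with 2 of 3 higher. Of the neuronal genes, 1 of 8 was lower, and their sums overlapped at 6727 to 7508 CPM in CDD and 7002 to 7338 CPM in ND. Endothelial genes, 1 of 6 lower, summed to 286 to 306 CPM in CDD and 296 to 307 CPM in ND. Macrophage genes, 1 of 6 lower, summed to 59.5 to 68.5 CPM in CDD and 67.4 to 78.3 CPM in ND. Meningeal fibroblast genes, 1 of 5 higher and 2 lower, summed to 431 to 480.2 CPM in CDD and 459 to 549 CPM in ND. Over all genes tested 8.83% passed (4.24% higher and 4.59% lower in CDD), and 13.1% of genes that averaged 20 CPM or more. A single gene makes 12.5% of the neuronal list and 16.7% of the endothelial or macrophage list. Liver, an organ rich in these enzymes, was checked through its defining genes, and Alb and Afp held at most 5 counts in any brain. Ttr, which the choroid plexus also makes, was not called by edgeR (adjusted p = 0.972). Yet it was uneven among the CDD brains, at 439, 271, 250 and 149 CPM, against 248 to 292 CPM in ND. Genes of steroid-making cells summed to 15.5 to 18.3 CPM in CDD and 16.5 to 18.5 CPM in ND. The part that shifts in cell types had in the results below was not tested, and in bulk tissue fewer cells of a type cannot be told apart from less RNA per cell.

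The promoters are shown for the 3 genes of the set that passed the test between diets, Acat2, Acly and Npc2. That of Hmgcs1, chosen after its values were seen, stands beside them as a sterol enzyme that did not pass. The sequences are from RefSeq on GRCm38.p6, run from 250 bases before to 50 bases after the annotated start, and are written 5′ to 3′ in the direction of the gene. Capitals mark CACNCCA, the core of the sterol regulatory element bound by SREBPs, and CCAAT, the motif of NF-Y, each on either strand. They are Acat2 at chr17:12960676-12960975 (minus strand), Acly at chr11:100527951-100528250 (minus), Npc2 at chr12:84773063-84773362 (minus) and Hmgcs1 at chr13:119690101-119690400 (plus).
Acat2: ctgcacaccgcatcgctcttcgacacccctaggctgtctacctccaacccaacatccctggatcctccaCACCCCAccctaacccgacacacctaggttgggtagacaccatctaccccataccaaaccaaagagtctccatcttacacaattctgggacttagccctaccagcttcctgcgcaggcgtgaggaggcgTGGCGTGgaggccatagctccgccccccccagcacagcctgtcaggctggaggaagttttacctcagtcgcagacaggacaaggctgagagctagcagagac
Acly: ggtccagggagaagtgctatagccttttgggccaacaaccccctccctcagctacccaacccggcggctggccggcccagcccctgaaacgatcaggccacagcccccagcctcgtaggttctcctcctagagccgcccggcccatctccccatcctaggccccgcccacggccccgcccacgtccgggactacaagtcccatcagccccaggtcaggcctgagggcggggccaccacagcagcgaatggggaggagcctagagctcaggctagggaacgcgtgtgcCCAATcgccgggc
Npc2: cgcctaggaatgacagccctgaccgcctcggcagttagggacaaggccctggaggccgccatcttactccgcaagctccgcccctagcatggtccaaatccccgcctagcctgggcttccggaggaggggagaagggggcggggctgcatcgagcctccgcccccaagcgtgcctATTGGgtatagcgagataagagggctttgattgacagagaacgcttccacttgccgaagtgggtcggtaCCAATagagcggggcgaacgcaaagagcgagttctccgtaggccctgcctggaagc
Hmgcs1: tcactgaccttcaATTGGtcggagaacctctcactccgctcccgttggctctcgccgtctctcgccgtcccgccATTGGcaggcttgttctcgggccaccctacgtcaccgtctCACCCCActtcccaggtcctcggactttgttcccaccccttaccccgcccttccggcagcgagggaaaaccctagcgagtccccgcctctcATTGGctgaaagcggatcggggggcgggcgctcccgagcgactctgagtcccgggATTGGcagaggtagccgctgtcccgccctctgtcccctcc

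The Acat2 window held the CACNCCA core 181 and 52 bases before the start and no CCAAT. The Acly window held a single CCAAT, 38 bases after the start, and the Npc2 window held CCAAT 75 and 6 bases before it. Hmgcs1 had the core 136 bases before the start and 4 copies of CCAAT. Windows were at hand for 26 of the 33 genes, and those of Fdps, Fdft1, Sqle, Stard4, Npc1, Scd1 and Scd2 were not used here. CCAAT occurred in 22 of these 26 genes (84.6%), against 41.1% of all 27025 genes with a window. Among sterol enzymes it occurred in 14 of 15, Acat2 being the one without it. The sterol element core was found in 6 of 26 genes (23.1%), against 20.6% of all genes. It was found in 3 of 5 SREBP regulators and in 0 of 5 fatty acid genes with a window. CACGTG, the E-box that SREBPs can also bind, was found in 6 of 26 genes (23.1%) against 8.09% of all genes. All motifs were searched on both strands, and no motif contains another. These letter matches are descriptions of the windows and do not show binding.

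Between diets the set changed little. All 33 genes passed the filter on low counts, and 3 were called at an adjusted p under 0.05 (edgeR's quasi-likelihood test, Benjamini-Hochberg over 19367 genes). All 3 were higher in CDD: Acat2 of the sterol branch, Npc2 of sterol transport and Acly, which feeds both branches. That is 9.09% of the set, beside 8.83% of all genes tested and 13.1% of the 8687 genes that averaged 20 CPM or more, a level that 31 of the 33 genes reached. In the upward direction the share was 9.09%, against 4.24% of all genes and 7.33% of genes at that level. Downward it was 0 of 33, against 4.59% of all genes and 503 of the 8687 genes at that level. An unadjusted p under 0.05 was reached by 9 genes upward and 1 downward (30.3%, against 23.9% of all genes and 32% of genes at that level). DESeq2 and limma-voom called the same 3 genes, where they called 13.9% and 8.41% of all genes. In 5 genes (15.2%) all CDD brains lay above all ND brains and in 0 below, where 15% of all genes tested and 21% of genes with at least 20 CPM had no overlap in either direction. No member changed by more than 0.25 on the log2 scale, and for 25 of 33 the whole 95% interval lay within that bound. The median log2 fold change over the set was 0.06, against -0.00 over all genes tested, and 0.03 for the set without CDD replicate 2.

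**Figure D1:**
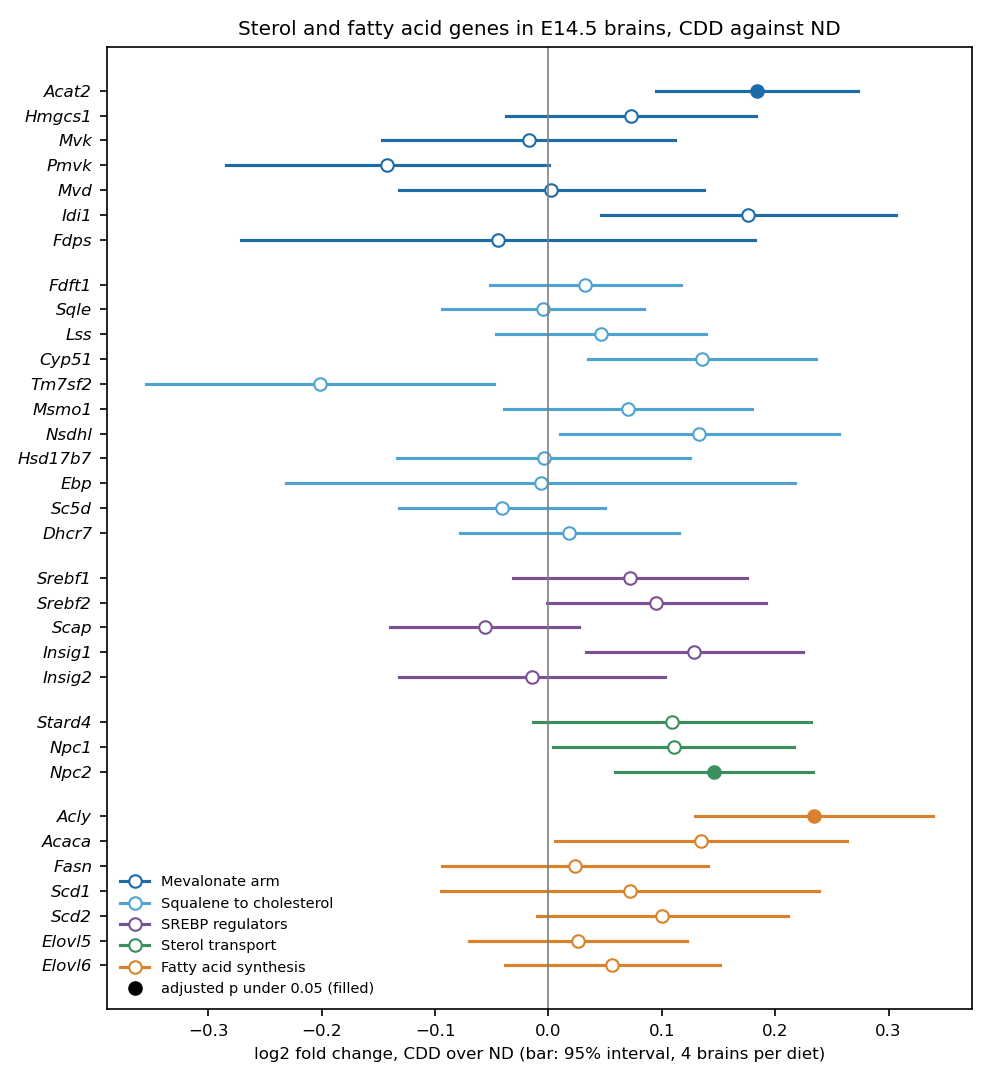
Log2 fold change of each gene, CDD over ND, with its 95% interval (n = 4 brains per diet), grouped by role; filled points passed the adjusted p threshold. Only Acat2, Npc2 and Acly are filled, and values run from -0.20 (Tm7sf2) to 0.23 (Acly).

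Acat2 encodes the cytosolic thiolase that joins acetyl-CoA units at the entry to the mevalonate pathway. It stood at 135, 140.3, 129 and 146 CPM in the CDD brains and at 117, 124, 121 and 122 CPM in the ND brains. The CDD and ND brains did not overlap. The means were 138 ± 7.13 and 121 ± 3.04 CPM (SD, n = 4), a log2 fold change of 0.18 (SE 0.043, adjusted p = 0.0124, edgeR). Its gene lies on chromosome 17 at 13161777 to 13179634 in the deposited table, whose genome build is not given in the sources used here. Acat3, its close copy on the same chromosome, averaged 1.14 CPM, and reads from stretches the copies share may be split between them. The call for Acat2 was lost without ND replicate 1, 3 or 4 (adjusted p = 0.0730, 0.0689 and 0.0506), each of which also lowered the share of all genes called to 2.40% to 3.50%.

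The rest of the mevalonate arm went in both directions, with a median log2 fold change of 0.00 over its 7 enzymes. Idi1, which makes the isoprenoid unit dimethylallyl diphosphate, stood at 33.1, 38.8, 33.5 and 35.9 CPM in CDD and 32.7, 30.8, 29.4 and 32.1 CPM in ND. The diets did not overlap, yet the gene missed the threshold (log2 fold change 0.18, SE 0.062, adjusted p = 0.0828). Its highest value was that of CDD replicate 2, and without that brain the log2 fold change was 0.13 (adjusted p = 0.231). Without CDD replicate 3 the gene was called (adjusted p = 0.0497). Pmvk, the second kinase of the arm, read 30.5, 29.9, 31.5 and 24.8 CPM in CDD against 32.4, 31.7, 33.4 and 31.5 CPM in ND. Its CDD values were lower mainly in replicate 4, and the difference did not pass (log2 fold change -0.14, SE 0.068, adjusted p = 0.211). Hmgcs1, the synthase that makes HMG-CoA, was at 392, 440.0, 379 and 413 CPM in CDD and 391, 369, 383 and 401 CPM in ND. These ranges overlapped (log2 fold change 0.07, adjusted p = 0.437). Mvk and Mvd, which phosphorylate and decarboxylate mevalonate intermediates, had log2 fold changes of -0.02 and 0.00. Fdps, the farnesyl diphosphate synthase, was at -0.04. Its level is uncertain, since 1124 of its exon bases are shared on the same strand with Gm43738. Shared exon bases here and below are from a GENCODE annotation, which may differ from the one behind the counts.

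None of the 11 enzymes from squalene to cholesterol was called, and their median log2 fold change was 0.02. Cyp51, the lanosterol demethylase, came closest among those above 0. It read 167, 193, 170.1 and 189.8 CPM in CDD and 163, 164, 162 and 167 CPM in ND, without overlap between diets. The log2 fold change was 0.14 (SE 0.048, adjusted p = 0.0859). Without CDD replicate 2 it was 0.10 (adjusted p = 0.253), and without CDD replicates 2 and 4 it was 0.04 (adjusted p = 0.630). Without CDD replicate 1 or 3 the gene was called (adjusted p = 0.0440 and 0.0417). Nsdhl, a decarboxylating dehydrogenase of C4 demethylation, read 32.1, 34.9, 30.9 and 31.8 CPM in CDD and 29.3, 29.1, 28.5 and 31.3 CPM in ND. The ranges met only at the lowest CDD and highest ND brain (log2 fold change 0.13, SE 0.059, adjusted p = 0.169), and without CDD replicate 2 the log2 fold change was 0.10 (adjusted p = 0.366). Nsdhl and Ebp are X-linked, and neither was called by edgeR in the main fit (adjusted p = 0.169 and 0.980). Neither was called with Xist as a covariate, which therefore does not tell whether embryo sex mattered for them.

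Tm7sf2, a sterol reductase that shares its step with Lbr, had the lowest fold change of the set. It read 36.9, 35.1, 41.2 and 30.2 CPM in CDD and 40.6, 40.3, 43.0 and 41.1 CPM in ND. CDD replicate 3 lay within the ND range and CDD replicate 4 was the lowest of all brains. The log2 fold change of -0.20 (SE 0.073) did not pass (adjusted p = 0.0934). It passed without a filter on low counts (adjusted p = 0.0179) and without CDD replicate 3 (adjusted p = 0.01004). The latter was the only 1 of the 8 fits with 1 brain left out in which Tm7sf2 was called. Over those fits its log2 fold change ranged from -0.28 to -0.13. A total of 532 exon bases are shared on the same strand with Vps51, itself at -0.05 on the log2 scale. Other members share exon bases on the opposite strand, among them Fdft1 (774 with Ctsb) and Npc1 (511 with Rmc1). Their counts may depend on whether counting used strand, which is not given. The other 8 enzymes of this arm were the squalene synthase Fdft1, the epoxidase Sqle, the cyclase Lss, the C4 methyl oxidase Msmo1, the ketoreductase Hsd17b7, the isomerase Ebp, the desaturase Sc5d and the final reductase Dhcr7. Their log2 fold changes lay between -0.04 (Sc5d) and 0.07 (Msmo1). Their adjusted p-values ran from 0.452 for Msmo1 to 0.981 for Hsd17b7.

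Of the 5 SREBP regulators none was called, and the paralogs of each pair did not pass either way. Srebf2 read 356, 380.0, 371 and 393 CPM in CDD and 348, 347, 357 and 352 CPM in ND. One CDD brain lay within the ND range, and the log2 fold change was 0.10 (SE 0.046, adjusted p = 0.218). Srebf1 read 79.0, 73.3, 73.2 and 66.5 CPM in CDD and 69.4, 70.7, 67.9 and 69.8 CPM in ND. Its highest and its lowest brain were both CDD, and the log2 fold change was 0.07 (SE 0.049, adjusted p = 0.407).

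Insig1, itself a known SREBP target, read 69.9, 74.0, 66.2 and 72.4 CPM in CDD and 64.6, 62.6, 64.8 and 66.3 CPM in ND. The ranges met at a single pair of brains, and the difference missed the threshold (log2 fold change 0.13, SE 0.046, adjusted p = 0.0858). Without CDD replicate 2 it was 0.11 (adjusted p = 0.216), and without CDD replicate 3 it was 0.16 and was called (adjusted p = 0.0267). Insig2, the paralog with the same retention role, read 31.0, 29.5, 30.8 and 29.1 CPM in CDD and 31.8, 28.9, 30.6 and 30.3 CPM in ND. These ranges overlapped throughout (log2 fold change -0.01, adjusted p = 0.911), and the 95% intervals of Insig1 (0.03 to 0.22) and Insig2 (-0.13 to 0.10) also overlapped. The difference between the paralogs was not tested. Scap, the sterol sensor that escorts SREBPs, was at -0.06 (adjusted p = 0.425).

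The 3 genes of sterol transport all had log2 fold changes above 0. Npc2, the soluble lysosomal protein that takes cholesterol out of lipoproteins, read 95.04, 97.5, 100.2 and 96.4 CPM in CDD and 90.0, 91.2, 85.8 and 84.8 CPM in ND. All CDD brains were above all ND brains, with means of 97.3 ± 2.18 and 87.9 ± 3.16 CPM (SD, n = 4). The log2 fold change was 0.15 (SE 0.042, adjusted p = 0.0352). This was the least firm of the 3 calls: it was lost without CDD replicate 2 (adjusted p = 0.0660), CDD replicate 3 (0.0580), or ND replicate 1, 3 or 4 (0.0811 to 0.151), while the fold change stayed between 0.13 and 0.17.

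Npc1, the membrane partner to which NPC2 hands cholesterol, read 52.6, 57.3, 55.4 and 60.1 CPM in CDD and 51.3, 54.7, 52.1 and 50.7 CPM in ND. The overlap came from CDD replicate 1 and ND replicate 2, and the gene did not pass (log2 fold change 0.11, SE 0.051, adjusted p = 0.191). Stard4, a cytosolic sterol carrier, read 35.7, 39.8, 36.2 and 40.6 CPM in CDD and 36.1, 35.2, 33.6 and 36.3 CPM in ND. CDD replicates 2 and 4 stood above the ND brains and CDD replicates 1 and 3 within them (log2 fold change 0.11, SE 0.059, adjusted p = 0.268).

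**Figure D2:**
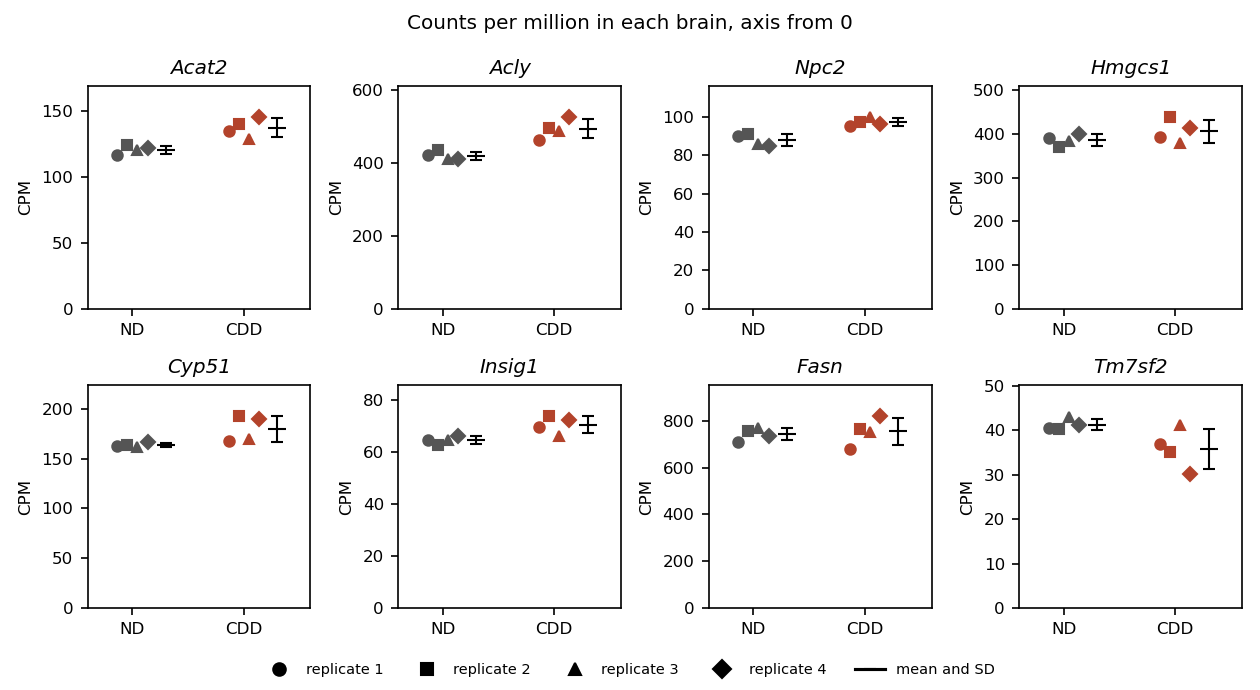
CPM in each brain for 8 genes, axes from 0; symbols give the replicate number, and the bar beside each group is the mean with SD (n = 4). CDD brains lie above all ND brains for Acat2, Acly, Npc2 and Cyp51, while those of Hmgcs1, Insig1, Fasn and Tm7sf2 overlap with ND.

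All 7 fatty acid genes had log2 fold changes above 0, with a median of 0.07, and 1 was called. Acly, the ATP citrate lyase that makes cytosolic acetyl-CoA for both pathways, read 462, 496, 487 and 525 CPM in CDD and 422, 434, 409.6 and 410.3 CPM in ND. The diets were apart by more than the range within ND. Means were 493 ± 25.8 and 419 ± 11.3 CPM (SD, n = 4), a log2 fold change of 0.23 (SE 0.050, adjusted p = 0.00799), or 1.18-fold. The call held in 7 of 8 fits with 1 brain left out and was lost without ND replicate 3 (adjusted p = 0.0650). The gene lies on chromosome 11 at 100367179 to 100418826 in the deposited table.

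Downstream of Acly the differences were smaller. Acaca, the acetyl-CoA carboxylase that commits carbon to fatty acids, read 181, 198, 194 and 232 CPM in CDD and 177, 183, 182 and 191 CPM in ND. CDD replicate 4 was far above the rest, and the gene did not pass (log2 fold change 0.13, SE 0.061, adjusted p = 0.186). Without that brain the log2 fold change was 0.06. Fasn, the fatty acid synthase, ranged from 682 to 822 CPM in CDD and from 709 to 771 CPM in ND (log2 fold change 0.02, adjusted p = 0.851). Elovl5 and Elovl6, which lengthen polyunsaturated and saturated chains, were at 0.03 and 0.06.

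The desaturases Scd2 and Scd1, neighbours on chromosome 19, put the first double bond into saturated chains. Scd2 read 1087, 1133, 1031 and 1208 CPM in CDD and 1017, 1024, 1043 and 1076 CPM in ND. CDD replicate 3 lay inside the ND range (log2 fold change 0.10, SE 0.053, adjusted p = 0.260). Scd1 read 18.9, 24.4, 20.5 and 23.0 CPM in CDD and 21.9, 19.0, 19.7 and 21.9 CPM in ND, with full overlap (log2 fold change 0.07, SE 0.080, adjusted p = 0.640). Its fold change was 0.01 without CDD replicate 2 and 0.14 without CDD replicate 1. Reads from near-identical stretches of the desaturase genes may be split between copies, and Scd3 and Scd4 averaged 2.19 and 0.44 CPM.

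Set side by side, the sterol and fatty acid branches did not part clearly. Sterol enzymes had 10 of 18 fold changes above 0 (55.6%) and fatty acid genes 7 of 7, where 49.1% of all tested genes and 54.6% of genes with at least 20 CPM lay above 0. The summed level of the 18 sterol enzymes was 1499, 1634, 1496 and 1545 CPM in CDD and 1491, 1464, 1475 and 1513 CPM in ND. That of the 7 fatty acid genes was 2584, 2777, 2638 and 2974 CPM in CDD and 2498, 2569.9, 2577 and 2589 CPM in ND. CDD replicate 2 led the sterol sum and CDD replicate 4 the fatty acid sum. The ratio of fatty acid to sterol sum was 1.72, 1.70, 1.76 and 1.93 in CDD and 1.68, 1.75, 1.75 and 1.71 in ND, and CDD replicates 3 (1.763, against an ND maximum of 1.755) and 4 lay above the ND range. The summed level of the 8 regulators and transport genes was 816 to 852 CPM in CDD and 791 to 794 CPM in ND.

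**Figure D3:**
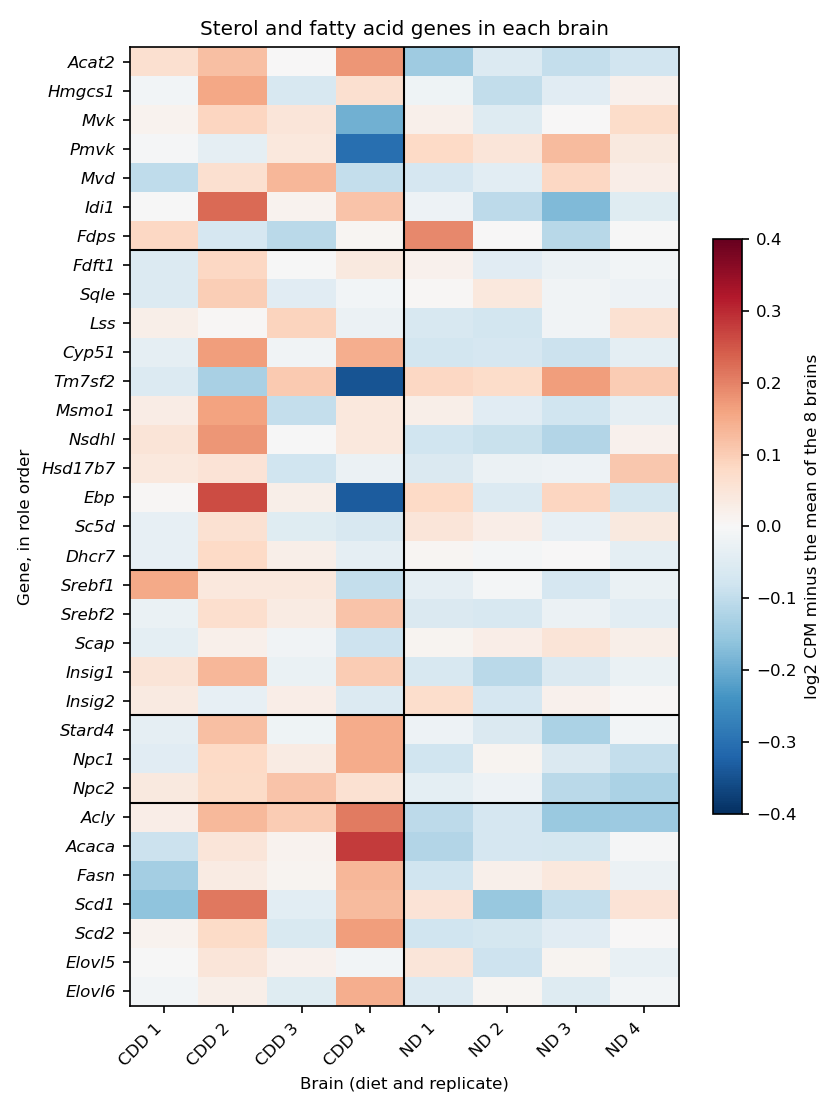
Log2 CPM of each gene in each brain after subtracting that gene's average across all 8, genes in role order from the mevalonate arm to fatty acid synthesis. The column of CDD replicate 2 is above the mean for most sterol enzymes, and that of CDD replicate 4 for most fatty acid genes.

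The brain that held the highest value differed between the branches. Of the 18 sterol enzymes, 11 (61.1%) were highest in CDD replicate 2, among them 8 of the 11 enzymes from squalene to cholesterol, and none was lowest there. Over all genes tested, 11.5% were highest in that brain. It is the same brain that held the Hox counts. Without it the median log2 fold change of the sterol enzymes was -0.01 with 8 of 18 above 0, and Acat2 and Acly were still called (adjusted p = 0.0324 and 0.0187). Of the 7 fatty acid genes, 5 (71.4%) were highest in CDD replicate 4, where 21.7% of all tested genes and 32.7% of genes with at least 20 CPM were highest. In that brain long genes stood higher and short genes lower. Its median log2 deviation from the mean of the ND brains was -0.08 in the shortest and 0.06 in the longest group of genes by length. Among the 33 genes 15 fell in the longest group, with a median log2 fold change of 0.07, and 4 in the shortest, with -0.00. With CDD replicates 2 and 4 both left out, Acat2, Acly and Npc2 were called and the median of the fatty acid genes was 0.02. That fit called 9.4% of all genes. The part of dissection or of gene length in these patterns was not tested.

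**Figure D4:**
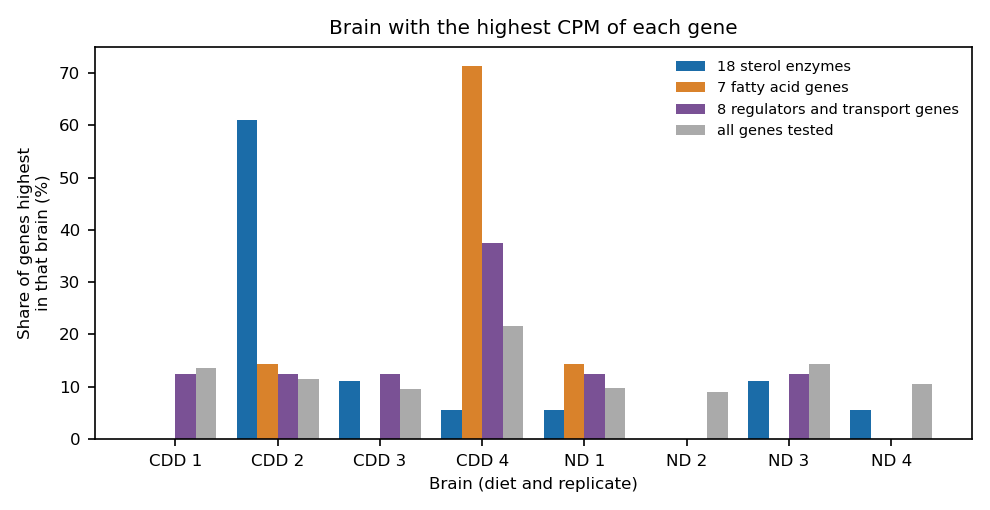
Share of genes (%) whose highest CPM was found in each of the 8 brains, for the 18 sterol enzymes, the 7 fatty acid genes, the 8 regulators and transport genes, and all genes tested. Sterol enzymes peak at CDD replicate 2 (61.1%) and fatty acid genes at CDD replicate 4 (71.4%).

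Levels between genes were compared per gene length, as the FPKM values in the deposited table. Scd2 was the most abundant at 203 ± 14.53 FPKM in CDD and 189 ± 4.65 FPKM in ND (SD, n = 4). Acly (85.9 FPKM over all brains), Hmgcs1 (85.8) and Fasn (68.2) followed, and the order of Acly and Hmgcs1 is not separated by their spread. Acat2 and Srebf2 came next at 50.6 and 50.3 FPKM, again within their spread. At the low end were Scd1 (4.31 FPKM), Ebp (3.72), an isomerase of the sterol ring, and Fdps (1.25). Within each paralog pair a single member dominated: Scd2 over Scd1, Srebf2 over Srebf1 (12.6 FPKM), and Insig1 (21.8 FPKM) over Insig2 (8.67). These gaps were far larger than any change by diet.

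**Figure D5:**
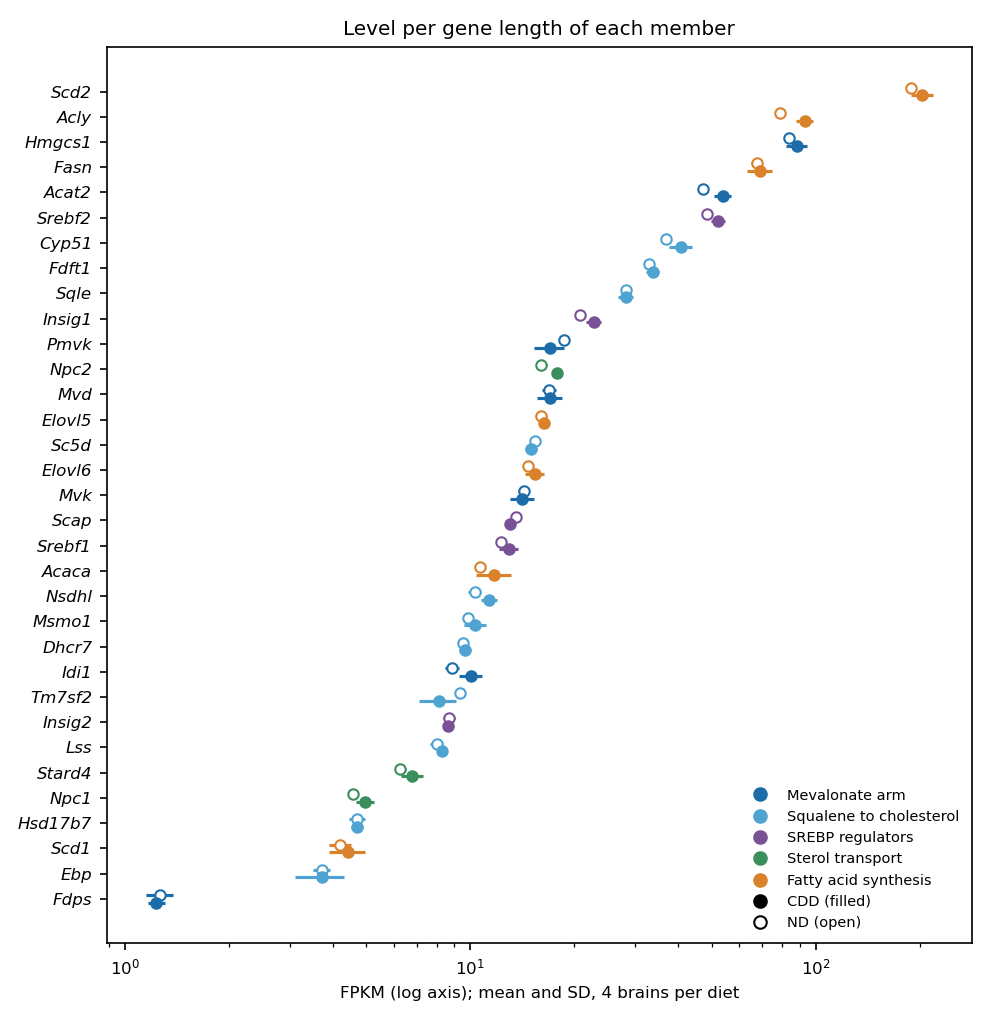
Mean FPKM with SD (n = 4 brains per diet) of the 33 genes on a log axis, ordered by the mean over all brains, CDD filled and ND open. The genes span from 1.25 (Fdps) to 196 FPKM (Scd2), and the diets lie close together for every gene.

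Further genes of the pathways were read from lists by role. Of 6 further sterol synthesis genes 0 were called by edgeR and 1 reached an unadjusted p under 0.05 in each direction (33.3%, beside 23.9% of all genes). Lbr, the reductase that shares a step with Tm7sf2, was at 0.16 on the log2 scale (adjusted p = 0.0724). Of 8 genes that process or degrade SREBPs and INSIGs 0 were called by edgeR, 1 reached an unadjusted p under 0.05 (12.5%), and their median was 0.05. Of 15 genes of cholesterol uptake and movement 3 reached an unadjusted p under 0.05 upward and 4 downward. That is 46.7%, beside 23.9% of all genes and 32% of genes with at least 20 CPM. The median log2 fold change over the 15 genes was -0.02. One was called (6.67%, beside 8.83% of all genes), Abcg4, a sterol exporter of neural cells, which fell by 0.22 on the log2 scale (adjusted p = 0.0208). It read 44.9, 41.7, 49.6 and 41.9 CPM in CDD and 51.1, 52.9, 52.4 and 51.4 CPM in ND, without overlap. Of 18 further fatty acid genes 2 were called (11.1%, beside 8.83% of all genes), and both were lower in CDD. In contrast to the 7 of 7 above 0 in the set, 11 of these 18 lay below 0, with a median of -0.08. An unadjusted p under 0.05 was reached by 1 upward and 4 downward (27.8%, beside 23.9% of all genes). Fads3, of the fatty acid desaturase family, fell by 0.28 (adjusted p = 0.0277) from 28.6 ± 1.55 to 23.5 ± 2.75 CPM (SD, n = 4). Mid1ip1, an activator of acetyl-CoA carboxylase, fell by 0.21 (adjusted p = 0.0263) from 38.5 ± 0.809 to 33.3 ± 1.99 CPM (SD, n = 4).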

How the data were processed

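Poly-A selected RNA from 8 whole E14.5 brains was sequenced in bulk. The authors deposited 1 table of raw read counts and FPKM (reads scaled to gene length and library size) for 33971 genes, with no filter on low counts. Per the labels, HISAT2 2.0.5, featureCounts 1.5.0-p3 and DESeq2 1.20.0 were used; the genome build, the annotation and whether counting used strand are not given in the sources used here. Columns of the authors' own comparison (normalised means, fold changes, p-values) were not used, nor were the tables of genes selected by it.

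Counts were tested with edgeR 4.0.16 in R 4.3.3 (filterByExpr, TMM scaling, robust quasi-likelihood fit on diet, Benjamini-Hochberg over the 19367 genes kept; called at an adjusted p under 0.05). CPM values use TMM-scaled library sizes. The test was checked on simulated counts. The 33 genes and all lists and markers were chosen with earlier results of these data known. Given in every brain are genes called, the 3 of lowest p in each role and the paralog pairs; Hmgcs1 was added after values were seen. Alternatives were DESeq2 1.42.0, limma-voom (limma 3.58.1), other scalings, filters and thresholds, thinning to the smallest library, a covariate for Xist, a replicate block and leaving out each brain. A gene length offset and leaving out CDD replicates 2 and 4 together were chosen after seeing the data. Pairs of brains differed beyond sampling noise (chi-square per degree of freedom 3.76 to 22.5 within a diet), so none was counted as a repeat. Between diets it ran from 4.01 to 30.8, and the highest pair within and between diets each held CDD replicate 4.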

Additional observations from a re-analysis of the deposited data

How the results depend on the processing

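Acat2, Acly and Npc2 were the members called under DESeq2, limma-voom, RLE and upper quartile scaling. The same held for a minimum of 10 counts in every brain, thinning to the smallest library and the Xist covariate. These fits called from 8.41% (limma-voom) to 13.9% (DESeq2) of all genes. With the Xist covariate the median log2 fold change was 0.037 over the members, against 0.056 in the main fit. Over the fatty acid genes it was 0.037 against 0.072. For the sterol enzymes it was 0.012 against 0.010. Without a filter on low counts 4 members and 2 sterol enzymes were called, Tm7sf2 being added, and 6.99% of all genes. At an adjusted p under 0.01 there were 477 calls over all genes, 1 among the members, 0 among sterol enzymes and 0 among regulators and transport genes. At 0.1 there were 2774, 7, 4 and 2. With the gene length offset, chosen after seeing the data, 6 members, 3 sterol enzymes and 2 regulators or transport genes were called, with Cyp51, Idi1 and Insig1 added, while 10.1% of all genes were called in that fit. Leaving out 1 brain at a time gave 471 to 2495 calls over all genes and 0 to 6 among the members. Among sterol enzymes it gave 0 to 4, among fatty acid genes 0 to 1 and among regulators and transport genes 0 to 1. No member was called without ND replicate 3, where 2.40% of all genes were called. Without CDD replicate 3 there were 6, where 12.7% of all genes were called. The cause was not tested.

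Insig2 changed sign at values near 0. Its log2 fold change ranged from -0.037 to 0.0098 with 1 brain left out (5.5e-05 without CDD replicate 4, 0.0098 without ND replicate 1), and was 0.0067 with the length offset and 0.018 without CDD replicates 2 and 4. Scd1 was at -0.070 in that last fit. With the replicate number as a block 2 sterol enzymes were called, Tm7sf2 being added (adjusted p = 0.0441), and 4 members in all. That fit called 9.36% of all genes. The numbers do not mark pairs in the labels: same-number correlations ran from -0.26 to 0.35, 3 of 4 were over 0.1, and 5 of 8 brains correlated best with their own number. With 4 brains per diet, changes well under 0.25 on the log2 scale could not be resolved for the less abundant genes, as the interval of Ebp (-0.23 to 0.22) shows.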

Other observations

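Of 66 groups tested (33 genes in each diet), 0 had a brain whose gap to the others passed Dixon's limit for 4 values, where chance alone would give about 3.3. The order of the genes depended on the scale of the level. Per gene length Pmvk ranked 11 of 33, but by CPM it ranked 28. Acaca ranked 20 per gene length and 6 by CPM.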
